A study of Homo sapiens with 21 samples.

Results

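FUBP1, FUBP3 and KHSRP are the 3 genes of the far-upstream element binding protein family, and the clusters on their own transcripts are described here in libraries of 5 RNA-binding proteins. Members were all clusters whose deposited gene name was FUBP1, FUBP3 or KHSRP in the 11 fluorescent PAR-CLIP libraries, and there were 612 of them among 756278 clusters. FUBP1 held 420, FUBP3 held 145 and KHSRP held 47. The clusters were then split by their deposited region class, because a tagged copy of a gene brings extra coding sequence into the cell, while introns belong to the native gene. The labels do not say which untranslated regions (UTRs) the tagged copies carry.

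All libraries came from Flp-In T-REx 293 cells, an established human embryonic kidney line, with a stably integrated transgene for a FLAG-HA tagged protein beside the native genes. The promoter of the transgene is not given. New RNA was labelled with 4-thiouridine, proteins were crosslinked to it with UV light and pulled down through the FLAG tag, and sequencing shows crosslinked positions as T-to-C conversions. The groups were FUBP3 at 0.15, 0.5 and 1.5 U/ul RNase I, KHSRP at the same 3 doses, CPSF1 (a subunit of the cleavage and polyadenylation machinery) at 0.5 U/ul, U2AF1 (a splicing factor at 3′ splice sites) at 1.5 and 15 U/ml RNase A and T1, and AGO2 (the protein that carries microRNAs) at 0.15 and 1.5 U/ul RNase I. Labelling lasted 8 to 12 h at 100 µM, and 2 h at 250 µM for U2AF1. Per the labels, KHSRP cells were lysed in a strong detergent buffer with sonication, U2AF1 came from chromatin, and cytoplasmic proteins were lysed in a mild detergent. No sentence of the labels names the lysis used for FUBP3, so lysis and protein cannot be told apart between FUBP3 and KHSRP libraries. There was 1 library per condition, so no difference below has a replicate check, no p-value is given, and intervals cover counting error alone, for reads that are not independent molecules.

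The proteins of this family carry several KH domains, folds that hold short stretches of single-stranded DNA or RNA, often rich in U or in U and G. FUBP1 was described as a binder of a single-stranded DNA element upstream of a gene start and also acts in splicing. KHSRP takes part in splicing, in the decay of mRNAs with AU-rich elements in their 3′ UTRs and in the maturation of some microRNAs. FUBP3 is known to bind the localization element in the 3′ UTR of beta-actin mRNA.

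The files held 75383 to 2172248 reads in clusters per library. A gene's level is given in RPM (its reads over all reads in that library's clusters, times 1000000). Clusters started at 5 reads (4 in U2AF1), which equals 2.30 RPM in the KHSRP library at 0.15 U/ul but 53.1 in U2AF1 at 15 U/ml, so a gene without a cluster is not a gene without reads. Among markers of the kidney line, LIN28B had clusters in 9 of 11 libraries and IRS4 in 8, while PAX2 had them in 4. Of 4 markers of other cell types, PTPRC, ALB and COL1A1 had no cluster and PECAM1 had clusters in 1 library.

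FUBP1 had its highest levels in KHSRP libraries, above all 3 FUBP3 libraries. It lies on the minus strand of chr1:77944055-77979501 (GRCh38.p14), and its protein was tagged in none of the libraries, so no tagged copy adds to its clusters. FUBP1 had 438, 423 and 450 RPM in the FUBP3 libraries at 0.15, 0.5 and 1.5 U/ul, against 3194, 3588 and 2088 in the KHSRP libraries. The groups did not overlap, and the share of all genes with such a separation was not counted. By a looser rule, 29.6% of 3563 measured genes were higher in KHSRP libraries at every dose. In the FUBP3 libraries it ranked 320th, 313th and 258th of 11549, 11883 and 9961 genes. In the KHSRP libraries it ranked 8th, 6th and 10th of 10450, 8855 and 6859 genes. FUBP1 had 233 RPM in the CPSF1 library and 1275 and 478 in the U2AF1 libraries at 1.5 and 15 U/ml. Neither AGO2 library had a FUBP1 cluster. Per kb of gene, FUBP1 was above both other members in 7 of the 11 libraries. At 0.15 U/ul it had 12.3 RPM per kb in the FUBP3 library and 90.1 in the KHSRP library, the FUBP3 gene had 5.86 and 2.79, and the KHSRP gene had 7.40 and 3.58.

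The FUBP3 gene was higher in libraries of its own protein. It lies on the plus strand of chr9:130579577-130638352. It had 344, 365 and 337 RPM in the FUBP3 libraries at 0.15, 0.5 and 1.5 U/ul, against 164, 158 and 110 in the KHSRP libraries. All 3 FUBP3 libraries were above all 3 KHSRP libraries, with intervals that did not meet (lowest bound 298 in FUBP3 libraries, highest bound 186 in KHSRP libraries). How many of all genes separate in this way was not counted. By a looser rule, 27.1% of 3563 measured genes were higher in FUBP3 libraries at every dose. The CPSF1 library, at 233, lay between them, with an interval of 168 to 315 that reached both. The FUBP3 gene had 1 cluster of 5 reads in the U2AF1 library at 15 U/ml and none in the other U2AF1 library or in AGO2.

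The KHSRP gene had a different order of levels, and its own libraries did not stand together. It lies on the minus strand of chr19:6413102-6424811. It had 86.7, 90.6 and 190 RPM in the FUBP3 libraries at 0.15, 0.5 and 1.5 U/ul, against 41.9, 42.0 and 499 in the KHSRP libraries. The value of 499 rests on 100 reads in the smallest of these 6 libraries, which held 200210 reads. The gene had 414 in U2AF1 at 1.5 U/ml, 1247 in U2AF1 at 15 U/ml, 33.3 in CPSF1 and 17.9 in AGO2 at 1.5 U/ul. With clusters of at least 10 reads alone, also in the total, the KHSRP library at 1.5 U/ul had 1515 and U2AF1 at 15 U/ml had 1393. Which of the 2 is higher thus depends on the read minimum. In CPSF1 and AGO2 the value came from a single cluster of 6 reads.

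**Figure D1:**
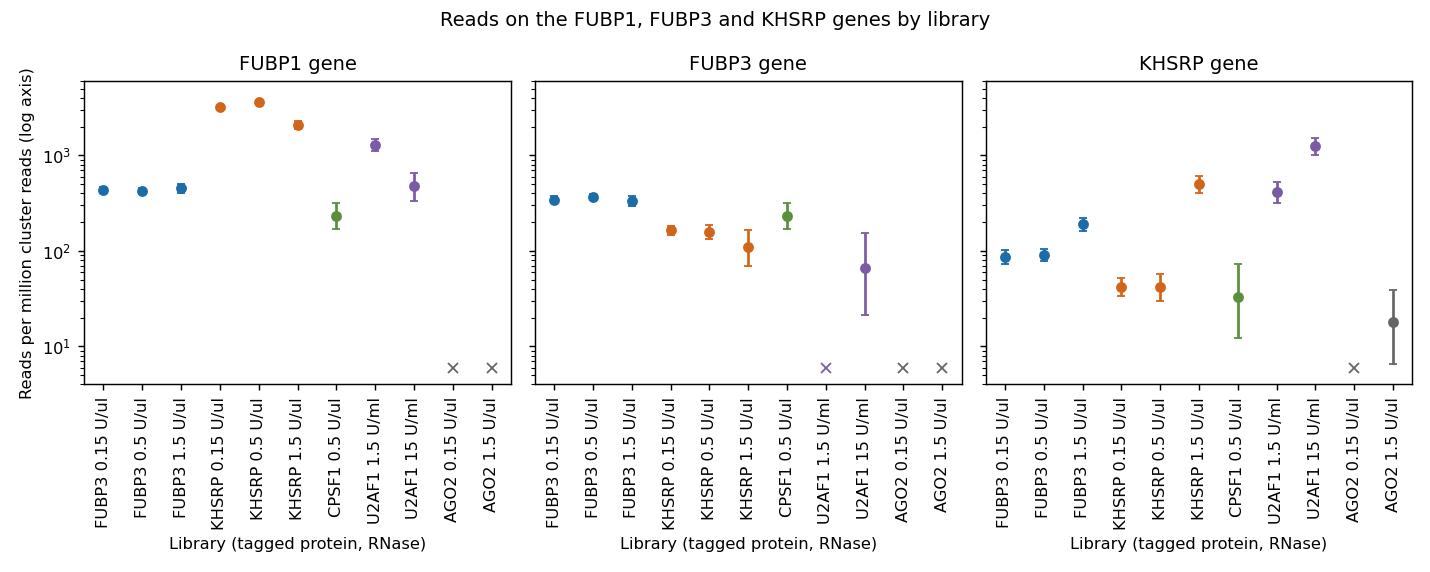
RPM (log axis) on each gene in the 11 libraries, with exact Poisson intervals at 95% and a cross at the bottom where the library had no cluster of the gene. FUBP1 is highest in the 3 KHSRP libraries (2088 to 3588), the FUBP3 gene in the 3 FUBP3 libraries (337 to 365), and the KHSRP gene in U2AF1 at 15 U/ml (1247), an order that turns with clusters of at least 10 reads alone (1393 there, against 1515 in KHSRP at 1.5 U/ul).

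Dose by dose, FUBP1 was 7.30, 8.48 and 4.64 times as high in the KHSRP as in the FUBP3 libraries at 0.15, 0.5 and 1.5 U/ul. As log2 of FUBP3 over KHSRP libraries this was -2.87, -3.08 and -2.21, and the interval at 1.5 U/ul, the widest, was -2.42 to -2.01. Of the 3563 genes with at least 10 reads in all 6 libraries, 10 had a lower mean over the doses than FUBP1 (-2.72). A gene was called when all 3 doses had the same direction. FUBP1 was called higher in KHSRP libraries, as were 29.6% of those genes. With clusters held to the same minimum share of reads in every library, an alternative chosen after seeing the data, the mean for FUBP1 was -4.19.

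The FUBP3 gene was 2.10, 2.31 and 3.07 times as high in the FUBP3 as in the KHSRP libraries, or 1.07, 1.21 and 1.62 on the log2 scale. Its mean of 1.30 was above that of 91.1% of the 3563 genes, and the medians over all genes at the 3 doses were 0.09, 0.09 and -0.21. It was called higher in FUBP3 libraries, as were 27.1% of genes. Without its coding clusters, which the tagged copy could supply, the log2 ratios were 1.00, 1.13 and 1.52, and the mean was above 89.7% of 3515 genes.

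The KHSRP gene had no single direction. It was 2.07 and 2.16 times as high in FUBP3 libraries at 0.15 and 0.5 U/ul, with log2 ratios of 1.05 and 1.11, and 2.63 times as high in the KHSRP library at 1.5 U/ul, with a log2 ratio of -1.39 (interval -1.77 to -1.02). The mean over the doses was 0.26, and 1.08 without the 1.5 U/ul libraries. Without coding clusters the 3 ratios were 1.17, 1.97 and -0.58, and the value at 1.5 U/ul had an interval of -1.03 to -0.12.

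**Figure D2:**
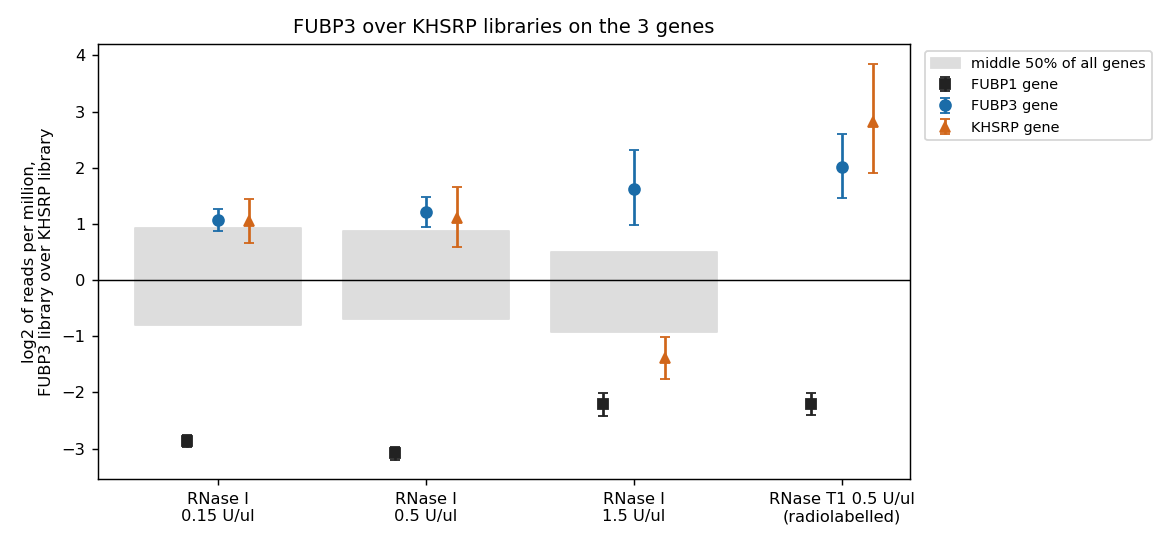
Log2 of RPM in the FUBP3 over the KHSRP library for the 3 genes, by dose, with exact binomial intervals at 95%, over grey bands for the middle 50% of 3563 genes; the last column holds the radiolabelled RNase T1 libraries, with no band. FUBP1 lies below the band at each dose (-2.87, -3.08, -2.21) and the FUBP3 gene above it (1.07, 1.21, 1.62). The KHSRP gene lies above it at 0.15 and 0.5 U/ul (1.05 and 1.11) and below it at 1.5 U/ul (-1.39).

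The region classes of the reads differed between the proteins on the FUBP3 gene. In FUBP3 libraries its 3′ UTR held 71.7%, 61.5% and 72.2% of the gene's reads at 0.15, 0.5 and 1.5 U/ul, from 416, 444 and 197 reads. In KHSRP libraries the 3′ UTR held 20.8% and 16.1% of the gene's reads at 0.15 and 0.5 U/ul, from 74 and 23 reads, and no 3′ UTR cluster was listed at 1.5 U/ul. Introns held 23.1%, 32.0% and 21.6% in FUBP3 libraries, against 79.2%, 77.6% and 100% in KHSRP libraries. The whole libraries lay the same way. Over all genes the 3′ UTR held 37.2%, 37.0% and 30.5% of reads in FUBP3 libraries, against 11.8%, 12.6% and 10.3% in KHSRP libraries.

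Set against other genes within the same class, the FUBP3 gene's 3′ UTR was 7.25 and 8.85 times as high in FUBP3 libraries at 0.15 and 0.5 U/ul, with log2 ratios of 2.86 and 3.15. It was one of the 71.7% of 1712 genes with 3′ UTR reads that were higher in FUBP3 libraries at both doses. Its mean, 3.00, was above that of 92.4% of these genes, whose median was 1.36. The log2 ratios of its intron reads were -0.71, -0.07 and -0.59, beside all-gene intron medians of -0.50, -0.45 and -0.53 over 2830 genes. All 3 were negative, as for 45.8% of those genes, and the intervals at 0.5 and 1.5 U/ul spanned 0. The FUBP3 gene was thus above most genes in its 3′ UTR ratio and near the median in its intron ratio, with a mean above that of 50.8% of genes.

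The FUBP3 sites with the most reads in FUBP3 libraries were all in the 3′ UTR, within 1 kb of the gene's end. They are shown because they hold the reads that set FUBP3 libraries apart on this gene. Each line gives up to 30 bases of the deposited cluster sequence around the position that the deposited files give as the cluster's mode, 5′ to 3′ on the transcript strand, with TGTA in capitals where present. UGUA is the form of this tetramer in RNA.
FUBP3 3′ UTR, chr9:130637983-130638012: ttaaccgcattatgaattaaataattttga
FUBP3 3′ UTR, chr9:130637497-130637526: ctTGTAtcttggctgtctggttttattgca
FUBP3 3′ UTR, chr9:130637931-130637960: atattttcttaatattttgtcagattaact

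The first of these lies in a site of 95 nt that held 65, 123 and 37 reads in the FUBP3 libraries at 0.15, 0.5 and 1.5 U/ul. The second site held 64, 46 and 48 reads, and the third held 61, 79 and 0 reads. In all, 5 of the gene's 74 merged sites in FUBP3 libraries recurred at all 3 doses, and they held 45.2% of its reads. The last kb of the gene held 227, 201 and 243 RPM in FUBP3 libraries.

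In KHSRP libraries the sites on the FUBP3 gene with the most reads were intronic. They are printed for contrast with the 3′ UTR sites.
FUBP3 intron, chr9:130596394-130596423: aaatgaagaTGTAgaacagtaTGTAttata
FUBP3 intron, chr9:130613094-130613123: cggtactttgcttgttgcttgggtaagtat
The site around the first held 54, 21 and 0 reads in the KHSRP libraries at 0.15, 0.5 and 1.5 U/ul. The site around the second held 27, 20 and 7 reads, and it was the gene's 1 site of 39 found at all 3 doses in KHSRP libraries.

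**Figure D3:**
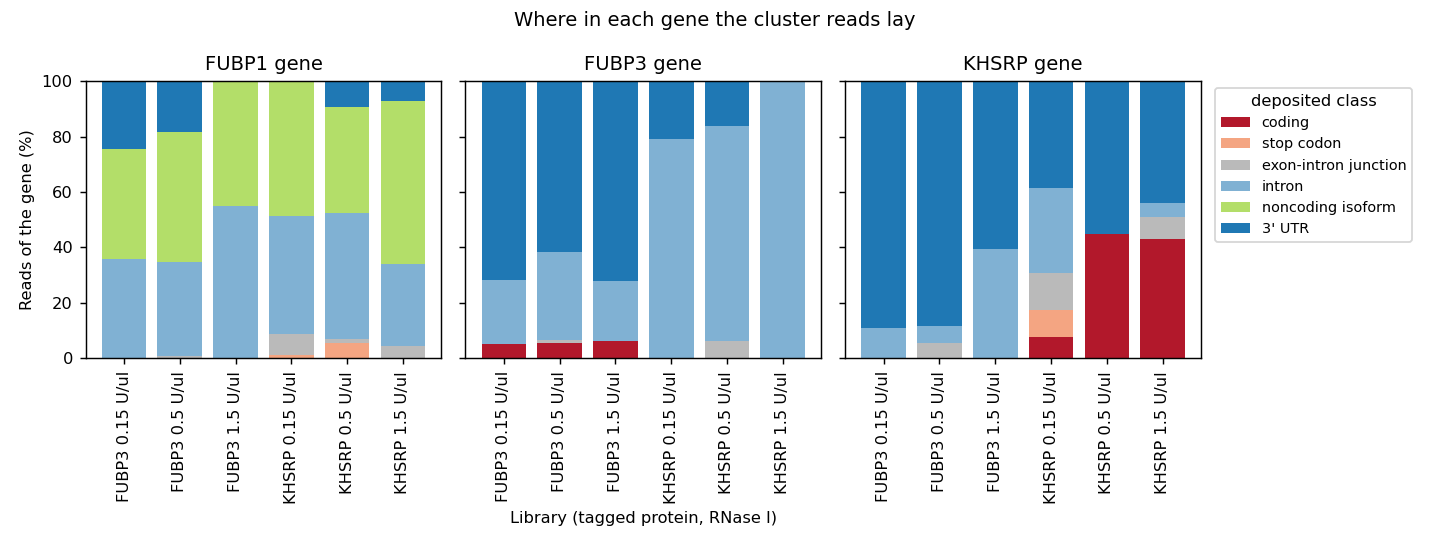
Share of each gene's reads (%) by deposited region class in the FUBP3 and KHSRP libraries. The FUBP3 gene is mostly 3′ UTR in FUBP3 libraries (61.5% to 72.2%) and mostly intron in KHSRP libraries (77.6% to 100%). Coding reads appear on the FUBP3 gene in FUBP3 libraries and on the KHSRP gene in KHSRP libraries. FUBP1 also has a few in KHSRP libraries at 0.15 and 0.5 U/ul (0.0721% and 0.215% of its reads).

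On FUBP1 both proteins left reads in introns and near the 3′ end. Most of its 3′ reads carried the deposited class of a processed transcript, called noncoding isoform here. Whether they belong to the 3′ UTR of the coding mRNA could not be settled, so position is used as well. The last 5 kb of FUBP1 held 64.2%, 65.3% and 45.2% of its reads in FUBP3 libraries at 0.15, 0.5 and 1.5 U/ul, against 52.7%, 55.3% and 67.9% in KHSRP libraries. Intron clusters held 35.8%, 33.7% and 54.8% in FUBP3 libraries, against 42.3%, 45.4% and 29.7% in KHSRP libraries. Both proteins thus had intron and 3′ end reads, and the order of the shares turned at 1.5 U/ul. The intron reads by themselves were 8.61, 11.4 and 2.51 times as high in KHSRP libraries.

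The largest FUBP1 sites came from KHSRP libraries and were long. The site at chr1:77948200-77948629 held 671, 396 and 30 reads in the KHSRP libraries, and the intron site at chr1:77967702-77968137 held 525, 313 and 5 reads. FUBP1 clusters in KHSRP libraries had median lengths of 51, 38 and 32 nt, against 30 nt for all clusters in each of the 3 libraries. In KHSRP libraries 20 of 135 FUBP1 sites recurred at all 3 doses and held 56.2% of the gene's reads. In FUBP3 libraries 8 of 113 sites recurred and held 15.4% of the reads. The lines below, chosen to set both proteins' sites side by side, give the surroundings of the mode in large sites of each protein on the minus strand.
FUBP1 in FUBP3 libraries, 3′ end, chr1:77948425-77948454: cacttttaaaatgcctgttttgtgctttac
FUBP1 in FUBP3 libraries, 3′ end, chr1:77948534-77948563: attggtttgtttttagtatttagTGTAgat
FUBP1 in FUBP3 libraries, 3′ end, chr1:77948571-77948600: actgataggaggttaatatttctgTGTAga
FUBP1 in KHSRP libraries, 3′ end, chr1:77948286-77948315: gctttccccatgaaatattgagtttttaaa
FUBP1 in KHSRP libraries, 3′ end, chr1:77947424-77947453: TGTAagtacatcagaatgacaaattgatga
FUBP1 in KHSRP libraries, intron, chr1:77968108-77968137: aagctaaagtaacaatttcaatgttaagat

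The 3 sites with the most reads in intron or UTR classes in FUBP3 libraries held 168, 88 and 66 reads over the doses, and all lie inside the 430 nt site of the KHSRP libraries at chr1:77948200-77948629. None of the 3 had a cluster at 1.5 U/ul. The sites of the noncoding isoform class were chosen for display after their values were seen. The site at chr1:77947822-77948199, with 680 reads in KHSRP libraries, was left out, though the site shown at chr1:77947424-77947453 held 606. The window of 30 bases in the omitted site had no TGTA.

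**Figure D4:**
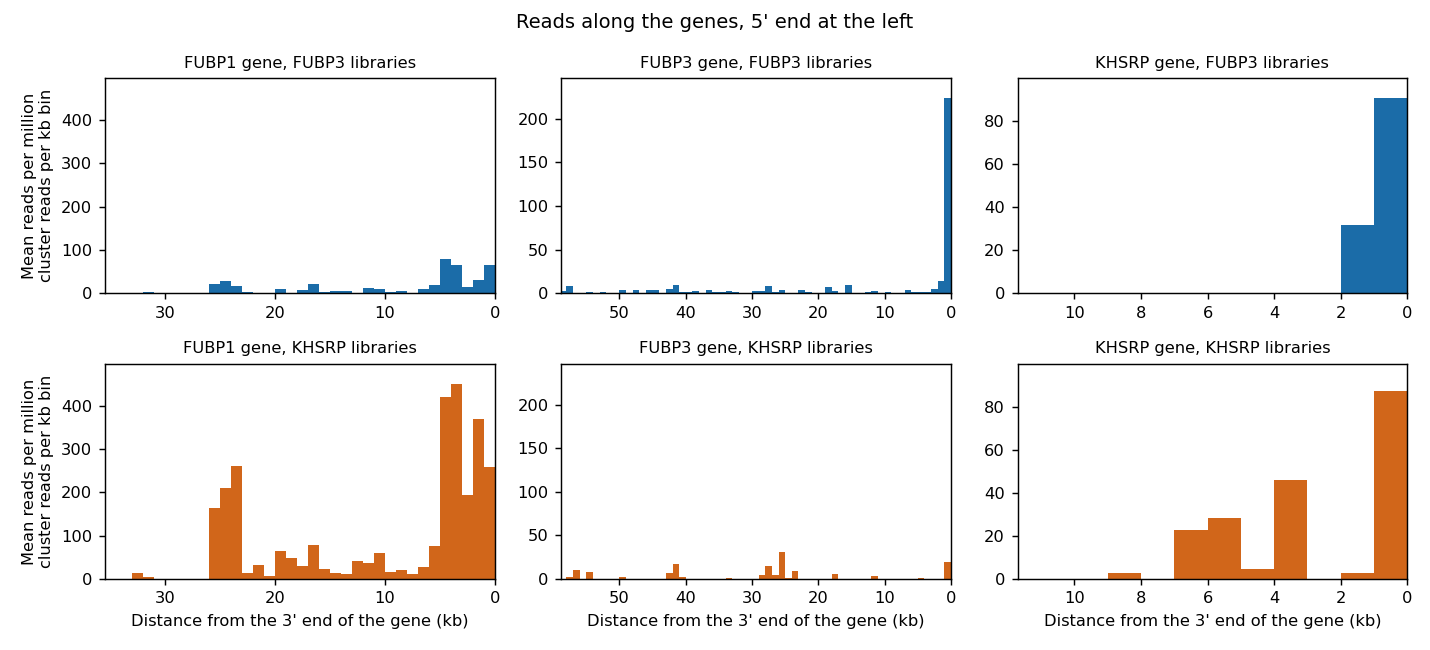
Mean RPM over the 3 doses in bins of 1 kb, by distance from the 3′ end of each gene, in FUBP3 libraries (upper row) and KHSRP libraries (lower row), with the same vertical axis within a gene. FUBP1 has reads near its end and about 23 to 26 kb upstream in both rows, more in KHSRP libraries; the last kb of the FUBP3 gene stands out in FUBP3 libraries (224).

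Clusters of both proteins met on all 3 genes. Of 153 FUBP1 clusters in FUBP3 libraries, 57.5% overlapped a KHSRP cluster at the same dose by at least 1 nt, and of 256 FUBP1 clusters in KHSRP libraries, 28.9% overlapped a FUBP3 cluster. By dose the share of FUBP3-library clusters was 83.1%, 59.0% and 9.09%, the last from 3 of 33 clusters. Over the clusters of all 3563 genes with at least 10 reads in each library, the shares were 9.52% in FUBP3 and 11.5% in KHSRP libraries. By dose the FUBP3-library share over these genes was 14.4%, 8.04% and 2.98%. On the FUBP3 gene the shares were 13.0% of 92 clusters in FUBP3 libraries and 26.1% of 46 in KHSRP libraries, and on the KHSRP gene 26.3% of 19 and 25% of 20. The covered length differed between libraries: FUBP1 clusters covered 9300, 5695 and 1264 nt in KHSRP libraries at 0.15, 0.5 and 1.5 U/ul, and its part in the shares was not tested. When at least 50% of each cluster had to overlap, the FUBP1 shares were 13.7% in FUBP3 and 8.20% in KHSRP libraries. The share over all genes was not computed under this rule, so these values have no baseline here.

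Both proteins shared 1 stretch of the KHSRP 3′ UTR at every dose. The FUBP3 site at chr19:6413980-6414109 held 67, 36 and 84 reads at 0.15, 0.5 and 1.5 U/ul, and the KHSRP site inside it, chr19:6414002-6414052, held 20, 15 and 31 reads. A second 3′ UTR site, near the end of the gene, held 63, 86 and 0 reads in FUBP3 libraries, where it spans chr19:6413333-6413421. The KHSRP library at 0.15 U/ul had 15 reads inside it and the other KHSRP libraries had no cluster there. The sequences around the modes are given for the shared and the second site, on the minus strand.
KHSRP 3′ UTR in FUBP3 libraries, chr19:6413985-6414014: gctgccgtggggagtactggggagccctcg
KHSRP 3′ UTR in KHSRP libraries, chr19:6414011-6414040: ctgttttgtttggcgagagagcgatggctg
KHSRP 3′ UTR in FUBP3 libraries, chr19:6413392-6413421: aaaaaaaatTGTAtggcagtttttactttt

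The KHSRP 3′ UTR held 89.0%, 88.3% and 60.4% of the gene's reads in FUBP3 libraries, against 38.5%, 55.3% and 44% in KHSRP libraries. Its reads were 4.79 and 3.45 times as high in FUBP3 libraries at 0.15 and 0.5 U/ul. The mean log2 ratio over these doses, 2.02, was above that of 72.1% of the 1712 genes with 3′ UTR reads. At 1.5 U/ul the 3′ UTR had 93 reads, or 115 RPM, in the FUBP3 library, against 44 reads, or 220 RPM, in the KHSRP library.

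Coding clusters, which a tagged copy could supply, were few on both genes of tagged family members. FUBP1, whose protein was not tagged, had 5 and 7 coding reads in KHSRP libraries at 0.15 and 0.5 U/ul, or 2.30 and 7.73 RPM. It had no coding cluster in FUBP3 libraries or in KHSRP at 1.5 U/ul. The FUBP3 gene had 30, 39 and 17 coding reads in FUBP3 libraries at 0.15, 0.5 and 1.5 U/ul, or 17.8, 19.7 and 21.0 RPM. They made up 5.17% (Wilson interval 3.65 to 7.29), 5.40% (3.98 to 7.30) and 6.23% (3.92 to 9.75) of the gene's reads, against 1.22%, 1.64% and 1.29% of reads in coding clusters over all genes in these libraries. No library of another protein had a coding cluster on the FUBP3 gene, but most could not have listed such levels. The smallest listed cluster equals 27.7 RPM in CPSF1 and 27.1 and 53.1 in U2AF1, above 17.8 to 21.0. In KHSRP at 1.5 U/ul it is also above these totals. In AGO2 it equals 16.9 and 14.9 RPM, above each coding cluster of the FUBP3 libraries at 0.15 and 0.5 U/ul. In KHSRP at 0.15 and 0.5 U/ul it equals 2.30 and 5.52 RPM, below the totals. The 10 coding clusters in FUBP3 libraries lay at 9 places along the coding sequence, 1 of which was found at more than 1 dose. Of the 10, 5 held copies of a single distinct read sequence, and none held more than 3.

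The KHSRP gene had 7, 17 and 43 coding reads in KHSRP libraries, or 3.22, 18.8 and 215 RPM, and none in FUBP3 libraries. They made up 7.69% (Wilson interval 3.78 to 15.0), 44.7% (30.1 to 60.3) and 43% (33.7 to 52.8) of the gene's reads, against 0.581%, 0.492% and 1.72% over all genes. The level was highest at 1.5 U/ul, in the library with the fewest reads, and the gene ranked 500th of 1095, 29th of 526 and 5th of 483 genes by coding reads at 0.15, 0.5 and 1.5 U/ul. In contrast to FUBP3, its coding sequence also had clusters where KHSRP was not tagged: 61 reads in U2AF1 at 1.5 U/ml, 39 in U2AF1 at 15 U/ml and 6 in AGO2 at 1.5 U/ul. Of the 7 coding clusters in KHSRP libraries, 2 were at places covered by a cluster of another protein, both in the library at 1.5 U/ul. One is the place at chr19:6416512-6416545, with 16 reads in that library and 51 reads in U2AF1 and AGO2 libraries, in clusters that carried the name of the microRNA gene MIR3940, alone or merged with KHSRP. The other, at chr19:6418823-6418859, had 10 reads there and 21 reads in U2AF1 at 15 U/ml. With clusters of at least 10 reads alone, the mean over KHSRP libraries was 234 RPM, against 78.9 with all clusters. That minimum also shrinks the total that reads are set over, so the rise is not one in coding reads. The only coding cluster at 0.15 U/ul, with 7 reads, dropped out.

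The coding sites with the most reads in own libraries are shown for comparison with the 3′ UTR sites above.
FUBP3 coding, chr9:130622719-130622748: taggtttgctgtggggatTGTAataggaag
FUBP3 coding, chr9:130636077-130636106: aggtcgctttctacggacagacgttagggc
KHSRP coding, chr19:6416368-6416397: gcccagttggaccaggcccaggtggcccag
KHSRP coding, chr19:6416512-6416541: ttcaccccagcagattgaccacgccaagca
KHSRP coding, chr19:6417783-6417812: ggtcattggccggagtggagagatgatcaa

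T made up 19.5% of the bases of FUBP3 coding clusters in FUBP3 libraries, against 31.2% in coding clusters of all genes. It made up 17.9% in KHSRP coding clusters in KHSRP libraries, against 29.2% in all genes. T is the base that 4-thiouridine can mark, and both genes' coding clusters held less of it than those of all genes.

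The genes of the other tagged proteins did not have like coding levels in their own libraries, and whether their coding reads came from the tagged copy was not tested. AGO2 had 701 and 468 coding reads in AGO2 libraries at 0.15 and 1.5 U/ul, or 2369 and 1393 RPM, and was the gene with the most coding reads in both. CPSF1 had 267 coding reads in its library, or 1480 RPM, in 11 clusters that were all coding. In libraries of other proteins AGO2 had 7 coding reads in 1 library and CPSF1 had 5 in 1 library. U2AF1 had no coding cluster in its own libraries, where the gene had 59 and 60 reads at 1.5 and 15 U/ml. The FUBP3 gene, with 17.8 to 21.0 RPM in coding clusters of its own libraries, lay below AGO2 and CPSF1. Its own libraries held 550, 675 and 256 of its reads in introns and UTRs. It cannot be ordered against U2AF1, because the smallest listed cluster in the U2AF1 libraries equals 27.1 and 53.1 RPM at 1.5 and 15 U/ml.

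**Figure D5:**
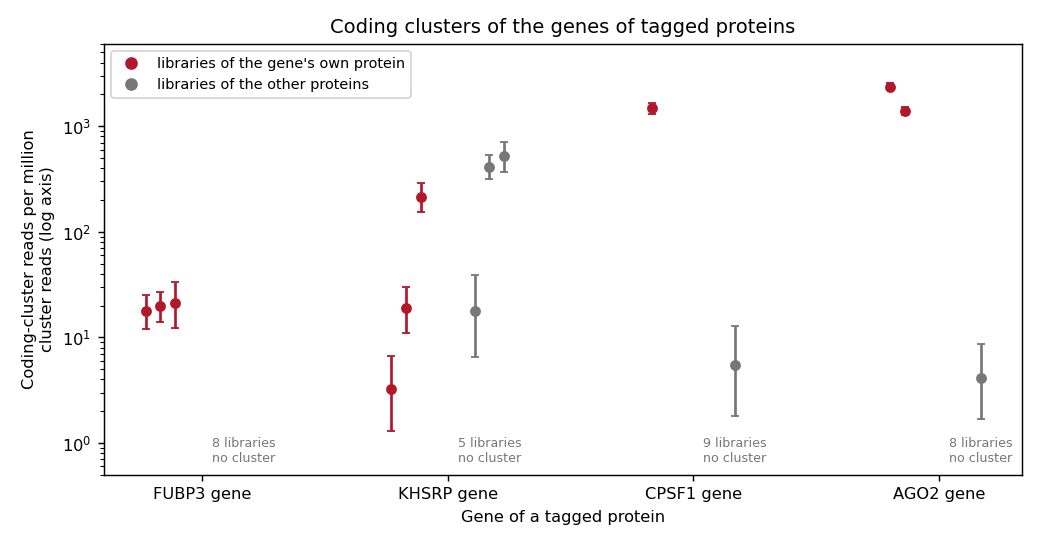
RPM (log axis) in coding clusters of 4 genes of tagged proteins, in libraries of the gene's own protein and of the other proteins, with exact Poisson intervals at 95%; grey numbers count libraries with no coding cluster. FUBP3 coding clusters are listed in its own libraries alone (17.8 to 21.0), at levels below the smallest listed cluster in CPSF1, U2AF1 and KHSRP at 1.5 U/ul. KHSRP coding reads are between 3.22 and 215 in KHSRP libraries and higher in U2AF1 libraries (414 and 517), and AGO2 (2369 and 1393) and CPSF1 (1480) are highest in their own.

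Radiolabelled libraries of FUBP3 and of KHSRP, made with RNase T1 at 0.5 U/ul, gave a further look at the 3 genes, with 179853 and 125960 reads in clusters. Deposited names were not used in them: clusters were taken by position within the RefSeq gene span and strand. FUBP1 had 1523 RPM in the FUBP3 library, against 7010 in the KHSRP library, a log2 ratio of -2.20 (interval -2.40 to -2.00). The FUBP3 gene had 1023 in the FUBP3 library, against 254 in the KHSRP library, a log2 ratio of 2.01 (1.46 to 2.60). The KHSRP gene had 612, from 110 reads, in the FUBP3 library, against 87.3, from 11 reads, in the KHSRP library, a log2 ratio of 2.81 (1.91 to 3.85). For FUBP1 and the FUBP3 gene the direction was that of the fluorescent libraries at each dose, and for the KHSRP gene that of 0.15 and 0.5 U/ul. In the T1 library of FUBP3, 9 of 11 clusters on the FUBP3 gene lay in the last 5 kb, as did all 4 in the T1 library of KHSRP, with 32 reads. In the fluorescent KHSRP libraries the last 5 kb held 22.8%, 16.1% and 0% of this gene's reads at 0.15, 0.5 and 1.5 U/ul. The T1 and fluorescent libraries of KHSRP thus differed in position on the FUBP3 gene, and the reason was not tested. None of the T1 clusters on any of the 3 genes overlapped a coding cluster of the fluorescent libraries.

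Out of 5 tetramers searched in the deposited cluster sequences, on the transcript strand alone and with overlapping matches included, TGTA and a run of T are described here. In 3′ UTR clusters of the FUBP3 gene TGTA occurred 27.4 times per kb in FUBP3 libraries and 42.1 times per kb in KHSRP libraries, against 12.7 and 17.0 per kb in 3′ UTR clusters of all genes. It was present in 18 of 28 such clusters in FUBP3 libraries and in 4 of 6 in KHSRP libraries, against 34.5% and 43.7% of all 3′ UTR clusters. FUBP1 clusters of the 3′ UTR class had 25.4 per kb in FUBP3 libraries, from 8 clusters, and 35.2 per kb in KHSRP libraries, from 4 clusters. In the noncoding isoform class, which held more of its 3′ reads, FUBP1 had TGTA at 13.3 per kb in FUBP3 libraries (56 clusters), against 9.94 for all genes. In KHSRP libraries FUBP1 had 12.4 per kb in that class (73 clusters), against 12.6 for all genes. The KHSRP 3′ UTR had 4.26 per kb in FUBP3 libraries, in 2 of 11 clusters, and none in the 6 clusters of KHSRP libraries. FUBP1 intron clusters had TGTA at 12.2 per kb in each protein's libraries, against 9.89 and 12.9 for all intron clusters. Intron clusters of the FUBP3 gene were below all genes in FUBP3 libraries, at 4.36 per kb, in 6 of 53 clusters. In KHSRP libraries they had 15.6 per kb, in 14 of 39 clusters. For TTTT the KHSRP 3′ UTR had 57.4 per kb and the FUBP3 3′ UTR 22.3 in FUBP3 libraries, against 29.3 for all genes. In KHSRP libraries TTTT had 18.9 per kb on the KHSRP 3′ UTR and 23.4 on the FUBP3 3′ UTR, against 21.5 for all genes. Clusters of 1 gene overlap across doses, so these counts repeat some sequence.

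Reads on FUBP1 in KHSRP libraries carried fewer conversions than the libraries as a whole: 60.9%, 64.6% and 77.3% of FUBP1 reads at 0.15, 0.5 and 1.5 U/ul, against 73.5%, 78.7% and 90.1% of all cluster reads. The FUBP3 gene in FUBP3 libraries had 75%, 64.3% and 69.6%, against 83.3%, 83.1% and 90.1%. The KHSRP gene in KHSRP libraries had 70.3%, 63.2% and 49%, beside the same KHSRP-library values as FUBP1. No stretch of 18 nt or more was shared between clusters of different family members. Clusters that shared such a stretch with a cluster of another name held 23.5% of FUBP1 reads, 17.5% of FUBP3 reads and 6.40% of KHSRP reads, and mapping could split or misplace those reads.

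Transcripts of other KH-domain proteins were spread to both sides. Of 36 listed genes 20 had at least 10 reads in all 6 libraries. Of these, 4 were higher in FUBP3 libraries at every dose and 8 in KHSRP libraries, beside 27.1% and 29.6% of all genes. Their median log2 ratio was -0.35, against 0.02 over all genes. FXR1, a relative of the fragile X protein, was among the furthest toward KHSRP, with a mean of -1.51, and so was PNPT1, a mitochondrial exoribonuclease, with -1.69. ASCC1, a subunit of a transcription coactivator, had 0.85, and KHDRBS3, a splicing regulator, had 0.71. None of these 4 was as far from 0 as FUBP1.

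Transcripts of other proteins that bind AU-rich or U-rich elements were also on both sides. Of 18 listed genes 14 were measured. Of these, 6 (42.9%) were higher in FUBP3 libraries at every dose and 5 (35.7%) in KHSRP libraries, beside 27.1% and 29.6% of all genes. Their median log2 ratio was 0.29, against 0.02 over all genes. PTBP2, a splicing repressor of the nervous system, had a mean of -1.89, and TIAL1, a stress granule protein, had -1.81. HNRNPAB, an abundant nuclear RNA-binding protein, had 2.92, and ZFP36L2, which speeds decay of AU-rich mRNAs, had 1.62. PTBP2 levels in KHSRP libraries, 3593, 3630 and 2123 RPM, were close to those of FUBP1.

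The genes whose levels followed each member most closely were found by Pearson correlation of log2 RPM, with a pseudocount of 10, over the 11 libraries, among 5223 genes with clusters in all 6 FUBP3 and KHSRP libraries. For FUBP1 they were IPO5 (r = 0.993), CCNL1, UBA2, HNRNPH1 and DDX17. For the FUBP3 gene they were NBAS (r = 0.986), ZFPM2, TRAF3, SSBP2 and MORF4L2. For the KHSRP gene they were NUP85 (r = 0.925), SLC20A1, DSN1, BSDC1 and GPALPP1. The points share proteins, libraries and cluster minimums, so these values are descriptions.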

How the data were processed

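Each deposited file listed the clusters the authors called in 1 library. Per the file headers, the authors gave a read count, a count of distinct sequences and a T-to-C fraction per cluster. Per the submitters' processing notes, bcl2fastq 2.20.0 and cutadapt 1.15 were used, with build hg38. The aligner and cluster caller are not given in the sources used here.

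Reads were summed per gene and set over all reads in clusters. Ratios carry exact binomial intervals, levels exact Poisson intervals and shares Wilson intervals, all at 95%, with Python 3.11.15, pandas 2.3.3 and scipy 1.17.1. Ratios needed at least 10 reads in each of the 6 libraries, and the ratio code was tested on simulated data. Overlapping clusters of 1 protein were merged into sites. Named genes outside the family were, per list, up to 2 toward each protein by mean ratio, and the 5 most alike per member. Named clusters were taken from the 3 with the most reads per gene, protein and class, and not all of these are shown. U2AF1 files give no distinct sequences. The radiolabelled AGO2 libraries, of another build, were not used here. Alternatives were distinct sequences, read minimums, other totals and scaling, RefSeq spans, and stricter overlaps.

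The members, lists and rules were chosen with earlier results of these data known.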

Additional observations from a re-analysis of the deposited data

Results flagged for a closer look

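The KHSRP gene had a log2 ratio of FUBP3 over KHSRP libraries of -1.39 at 1.5 U/ul, against 1.05 and 1.11 at 0.15 and 0.5 U/ul. It is listed because the sign differed between doses. The difference between doses was not tested, and each dose rests on 1 library per protein.

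Some clusters lay within the span and strand of a family gene but carried another gene name or none, and the values above leave them out. They are listed because they held more reads than the limit of 3 that a count of 0 allows. Near the 3′ end of the KHSRP gene, between chr19:6413164 and chr19:6413331, such clusters held 99, 67 and 17 reads in FUBP3 libraries at 0.15, 0.5 and 1.5 U/ul and 36 reads in the KHSRP library at 0.15 U/ul. With all clusters in its span, the KHSRP gene had log2 ratios of 1.32, 1.57 and -1.24 at 0.15, 0.5 and 1.5 U/ul.

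At the KHSRP coding site that holds the microRNA gene MIR3940, a cluster named for both genes had 45 reads in U2AF1 at 15 U/ml, and a cluster named MIR3940 had 6 reads in AGO2 at 0.15 U/ul. The U2AF1 cluster spans chr19:6416506-6416544 and the AGO2 cluster chr19:6416497-6416525. Within the FUBP3 span, U2AF1 at 1.5 U/ml had 9 reads without the gene's name at chr9:130637604-130637638, close to the 3′ end.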

How the results depend on the processing

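No paired analysis was possible because the results come from no test: each protein and dose had 1 library, and the ratios already set libraries of the same dose against each other. The mean log2 ratio of FUBP1 (-2.72) stayed negative at every dose under all 7 alternatives, at -2.91 with median-of-ratios scaling, -2.91 with distinct sequences, -3.27 with clusters of at least 10 reads, -4.19 with a matched minimum share and -2.98 without 1.5 U/ul. The all-gene median was -0.17 under that scaling, against 0.02. The FUBP3 gene stayed positive at every dose under its 5 alternatives (1.11 to 1.30 in mean); it had no cluster left in the KHSRP library at 1.5 U/ul with at least 10 reads, or at 0.15 U/ul with a matched minimum, so neither gave a value. The KHSRP gene (0.26) had 0.07 with median-of-ratios scaling, 0.32 with distinct sequences and 0.37 with clusters of at least 10 reads. It had 0.85 without coding clusters, 0.55 by RefSeq span and 1.08 without 1.5 U/ul, and its matched minimum gave no value. Its coding level (78.9) was 234 with at least 10 reads, a minimum that also shrinks the total.

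Shares of overlapping clusters depended on the rule, and shares over all genes were computed for overlap by at least 1 nt alone. With 50% overlap they were 13.7% (FUBP3 libraries) and 8.20% (KHSRP libraries) for FUBP1, 6.52% and 13.0% for the FUBP3 gene, and 10.5% and 10% for the KHSRP gene. With at least 3 distinct sequences they were 76.1% and 13.0% for FUBP1, 25.9% in FUBP3 libraries for the FUBP3 gene and 62.5% in FUBP3 libraries for the KHSRP gene. The cause was not tested. Of the levels per gene and library, 23 of 27 stayed within their counting interval by RefSeq span, 19 of 27 with named clusters as the total, 14 of 22 with distinct sequences, 6 of 27 with at least 10 reads and 3 of 18 with a matched minimum. The RefSeq span for ratios, the matched minimum and leaving out 1.5 U/ul were chosen after seeing the data.

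Depth limits some values: in KHSRP libraries the FUBP3 gene rests on 22 reads at 1.5 U/ul and the KHSRP gene on 38 at 0.5 U/ul.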

Other observations

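In U2AF1 libraries most reads on FUBP1 and the KHSRP gene were of the junction and coding classes. For U2AF1 the exon-intron junction class gathers merged deposited labels that include the word intron. For FUBP3 and KHSRP libraries it gathers labels that join coding and intron, so the class is not alike between them and U2AF1. At 1.5 U/ml, 4 clusters of the exon-intron junction class held 170 of 188 FUBP1 reads (90.4%), beside 22.6% of all reads in that library. At 15 U/ml both FUBP1 clusters were coding, with 15 and 21 reads. On the KHSRP gene the junction class held 55 of 94 U2AF1 reads at 15 U/ml and none at 1.5 U/ml, where both clusters were coding, with 40 and 21 reads. On FUBP1 the junction class had 8 reads at 0.5 U/ul and no cluster at the other doses in FUBP3 libraries, against 531, 42 and 19 reads at 0.15, 0.5 and 1.5 U/ul in KHSRP libraries.

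Outside the 3 genes, the pseudogene KHSRPP1 had 1 cluster of 6 reads in U2AF1 at 1.5 U/ml.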
